A study of Mus musculus with 8 samples.

Results

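Oxidative phosphorylation (OXPHOS) is carried out by 5 complexes of the inner mitochondrial membrane. Complexes I to IV pass electrons from NADH and succinate to oxygen and build a proton gradient, cytochrome c carries electrons between complexes III and IV, and complex V (ATP synthase) uses the gradient to make ATP. Most subunits are encoded in the nucleus and a small core of subunits is encoded by mitochondrial DNA. Skeletal muscle is rich in these complexes, more so in slow and oxidative fibres, and AMP-activated protein kinase (AMPK) is an energy sensor known for its link to the making of mitochondria. The genes described here are the protein coding genes of the deposited table whose symbols follow the naming of nuclear OXPHOS subunits (Nduf, Sdh, Uqcr, Cyc1, Cycs, Cox4 to Cox8 and Atp5). The rule used names only and no measured value. It took 79 of 15349 genes, which hold 298 of the 56483 alternative polyadenylation sites (APSs) of the table. Complex I had 35 of these genes, complex II 4, complex III 8, complex IV 14, complex V 17 and cytochrome c 1. Cox4i2, Cox6b2 and Uqcrc1 were not analysed here. As background, some of the 79 genes are not subunits of the complex their symbol names: Atp5sl is now called Dmac2 and acts in the assembly of complex I, Atp5s resembles a coupling factor of ATP synthase, Ndufa4 is now placed in complex IV, and Cox7a2l takes part in joining complexes into supercomplexes.

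The samples were gastrocnemius muscles of male mice, 1 library per mouse, from a whole-body AMPKα1 knockout (KO) and its wild type (WT) and from an AMPKα2 KO and its WT, with 2 libraries in each of the 4 groups. The labels give adult mice of C57BL/6 background for all 8, whereas the methods of the study give the AMPKα1 KO as 129S2/SvPas of about 6 weeks and the AMPKα2 KO as C57BL/6 of about 8 weeks. Ages of the WT mice are not given in the sources used here, and no treatment was applied. Model, strain, age and library set coincide, so a difference between AMPKα1 and AMPKα2 libraries cannot be given to any of them. The assay was WTTS-seq, which sequences the 3′ ends of polyadenylated RNA, so that read counts should not scale with transcript length. Levels of different genes are set side by side as CPM, that is, reads of a gene scaled to a common total of reads assigned to genes (1e+06). In the AMPKα2 libraries 9.99% to 14.2% of the reads of protein coding genes lay in coding exons, so this holds less well there.

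Library totals lay between 2311242 and 3549156 reads. The 79 genes took 3.24% to 4.68% of the reads in the AMPKα1 libraries and 0.965% to 1.42% in the AMPKα2 libraries, where ribosomal RNA genes held 20.8% to 25.9% of the gene reads against 2.48% to 2.94% in AMPKα1. The AMPKα1 libraries varied more: the biological coefficient of variation was 103.5% there and 26.2% in AMPKα2. In the AMPKα1 KO group, 8368 genes reached 50 reads in 1 mouse or both, and 996 of them had no read in the other mouse, but none of the 79 genes did so in any group. AMPKα1 WT 1 stood apart among the WT libraries for these genes, and AMPKα2 KO 1 among the AMPKα2 libraries, so the main values are given with and without them. The deleted genes could not be used to check the labels, since a 3′ tag may lie outside the deleted part. Prkaa1, which encodes AMPKα1, had 0 and 82 reads in the KO and 15 and 0 in the WT, and Prkaa2, which encodes AMPKα2, had 40 and 71 reads in the KO and 87 and 62 in the WT of its own model. All 8 named markers of skeletal muscle fibres had reads in every library.

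The 3′ ends of the 79 genes were mostly simple. A gene had a median of 3 APSs, the most being 20 in Sdha. The leading APS held over 90% of the reads in 66 genes and under 50% in 3 genes, Ndufs1, Ndufs5 and Sdha. It lay within an annotated 3′ UTR in 63 genes and up to 24 nt past the annotated gene end in the other 16. Of 63 leading APSs whose last 30 bases could be read from GENCODE M21 transcripts, 40 had AATAAA and 12 only ATTAAA in these bases, and 11 had neither. Isoform genes of complex IV are shown because their reads are told apart by these ends; the leading APS of Cox8b, the muscle isoform of the Cox8 pair, lies past its annotated end and is not shown. Each line gives the 30 bases that end at the leading APS, 5′ to 3′ on the strand of the gene (GRCm38), with a polyadenylation signal in capitals where there is one.
Cox6a2 (muscle isoform), chr7:128205613-128205642, minus strand: ttccaagctcAATAAAggtgtggaagtttt
Cox6a1 (common isoform), chr5:115345654-115345683, minus strand: gagatgccttaAATAAAtaacttaaactca
Cox7a1 (muscle isoform), chr7:30186003-30186032, plus strand: taaatatgctaatctcttgagaacccaacc
Cox7a2 (common isoform), chr9:79755407-79755436, minus strand: aactgctgccAATAAAgcaatccttaacca
Cox8a (common isoform), chr19:7215161-7215190, minus strand: ttgtaacAATAAAgtctatttaaaccttgc
The Cox7a1 window was the one of these 5 that held neither form.

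The highest levels belonged to a few small subunits and to the head of ATP synthase. Uqcr11, a small subunit of complex III, had the highest mean over the 8 libraries at 1475 CPM (rank 1 in AMPKα1 and 4 in AMPKα2), and Cox4i1, a structural subunit of complex IV, followed at 1336 CPM. Atp5a1, the α subunit of the catalytic head of ATP synthase, averaged 1156 CPM, Ndufa5 of complex I averaged 1148 CPM and Cox7a1 averaged 1113 CPM. Atp5c1, the γ subunit, averaged 1082 CPM, Uqcrq of complex III 747 CPM and Ndufb9 of complex I 720 CPM. In complex II, Sdhb, the iron-sulfur subunit, averaged 580 CPM and Sdhd, a membrane anchor, averaged 204 CPM, and Cycs, the single gene for somatic cytochrome c, averaged 81.7 CPM. The order differed between the library sets: in AMPKα2 Cox7a1 led with 1131 CPM and Atp5b, the β subunit of ATP synthase, followed with 631 CPM, while in AMPKα1 they had ranks 8 and 28. Neighbours in this order overlapped in their libraries, so the order within the top 5 is a description. The 10 highest genes held 39.2% of the reads of all 79 genes in the AMPKα1 libraries and 33.7% in the AMPKα2 libraries. At the other end, Atp5j averaged 2.73 CPM and Ndufs5 3.56 CPM, so that values of these genes rest on few reads.

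The first comparison asked how OXPHOS transcripts differ between muscle without AMPKα1 and its WT. No gene of the 79 passed the test (edgeR quasi-likelihood test, adjusted p under 0.1), and neither did any of the 13924 genes tested (0% called), of which 589 had an unadjusted p under 0.05. The members nevertheless leaned to lower levels in the KO. The log2 fold change was below 0 in 75 of 79 members against 51.1% of all genes, and its median was -0.82 against -0.03 over all genes. With Atp5sl set to its bound the median was also -0.82. An unadjusted p under 0.05 was found in 18 members with a lower level and in 0 with a higher level, where 2.85% and 1.38% of all genes had one. Both KO libraries lay below both WT libraries in 53 members, against 18.9% of all genes, and above them in 0 members, against 13.6% of all genes. With library totals in place of the TMM factors (trimmed mean of M values, the scaling used throughout unless another is named), the non-overlapping members were 38 lower and 1 higher, where 14.1% and 18.7% of all genes were. That scaling moved the median of all genes to 0.22 and of the members to -0.56, so that the distance between the medians was -0.79 with TMM and -0.78 with library totals. DESeq2 called 3 members lower, Atp5sl, Ndufa13 and Ndufs8, where it called 0.873% of the genes with an adjusted p lower. Without AMPKα1 WT 1 the members' median was -0.45 (65 of 79 below 0) against 0.08 over all genes. The 18 members with a lower level and an unadjusted p under 0.05 became 5 without WT 1 (0.751% of all genes), 33 without WT 2 (2.78%), 6 without KO 1 (6.17%) and 1 without KO 2 (7.26%). Fewer cells of a type and less RNA per cell cannot be told apart in such bulk samples.

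**Figure D1:**
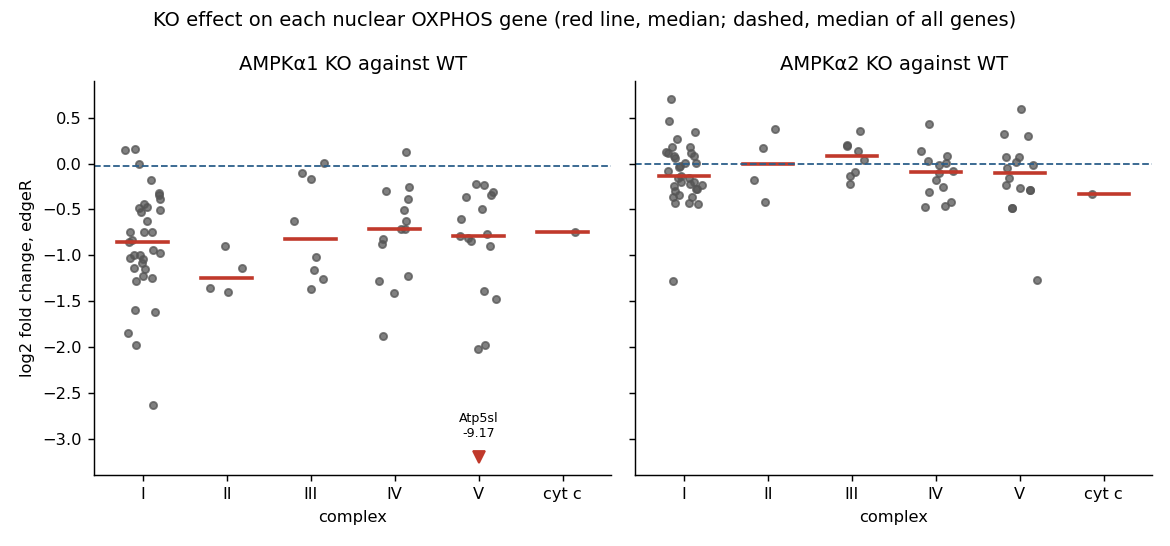
Log2 fold change of KO over WT (edgeR, vertical axis) for each of the 79 genes in AMPKα1 (left) and each of the 78 tested in AMPKα2 (right), by complex; red lines are medians and the dashed line is the median of all genes tested. In AMPKα1 75 of 79 points lie below 0, with Atp5sl drawn at the lower edge with its fitted value of -9.17 because it had no read in either KO library, and in AMPKα2 46 of 78 points lie below 0.

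Complex II had the lowest ratio of the complexes in the AMPKα1 KO, also without WT 1. Summed over its 4 genes, the level was 1029 and 829 CPM in KO mice and 2838 and 1540 CPM in WT mice, so that the groups did not overlap. The ratio of the means was 0.425, and the log2 ratio of -1.24 compares with a spread of 0.47 (pooled SD of the log2 totals within groups). All 4 genes had a lower level with an unadjusted p under 0.05, as had 2.85% of all genes, and none was called (edgeR, adjusted p under 0.1). Sdhb had 641 and 426 CPM in the KO and 1912 and 828 CPM in the WT (log2 fold change -1.36, SE 0.51). Sdhc, a membrane anchor, had 58.3 and 58.6 CPM against 192 and 119 CPM (log2 fold change -1.41, SE 0.48). Both KO libraries were below both WT libraries for these genes, and in each the WT 1 library was the highest. Sdha, the flavoprotein that oxidises succinate, had 105 and 96.9 CPM against 263 and 180 CPM, and Sdhd had 224 and 248 CPM against 471 and 413 CPM. The sites of Sdha differed. Its leading APS had 319 and 164 reads in the KO and 130 and 408 in the WT (log2 fold change -0.60, SE 0.64). Its site at chr13:74322253 had 24 and 75 reads against 287 and 128 (log2 fold change -2.96, SE 0.88). Neither passed (edgeR adjusted p = 0.798 and 0.543).

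The other complexes differed less. The summed level of complex I was 11617 and 10991 CPM in the KO and 24127 and 13941 CPM in the WT. Its log2 ratio of -0.75 compares with a spread of 0.40, and 33 of 35 genes had a fold change below 0. Complex V had 8055 and 6988 CPM against 13571 and 10890 CPM (log2 ratio -0.70, spread 0.19), with all 17 genes below 0. Complex IV had 6771 and 5496 CPM against 11225 and 7278 CPM (log2 ratio -0.59, spread 0.35), with 13 of 14 genes below 0. Complex III had 5153 and 4969 CPM against 7191 and 6134 CPM (log2 ratio -0.40, spread 0.12) and 7 of 8 genes below 0. For cytochrome c the values were 63.5 and 112 CPM in the KO and 136 and 157 CPM in the WT. With TMM the KO and WT totals did not overlap in any of the 5 complexes or in cytochrome c, while with library totals those of cytochrome c did. The sums are given without a test, since an exact permutation test of 2 libraries against 2 cannot go below 0.333. Over all 79 genes the log2 ratio was -0.67 with TMM and -0.39 with library totals, and without WT 1 it was -0.36. Without WT 1 it was -0.30 for complex I, -0.73 for complex II, -0.28 for complex III, -0.25 for complex IV and -0.53 for complex V.

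**Figure D2:**
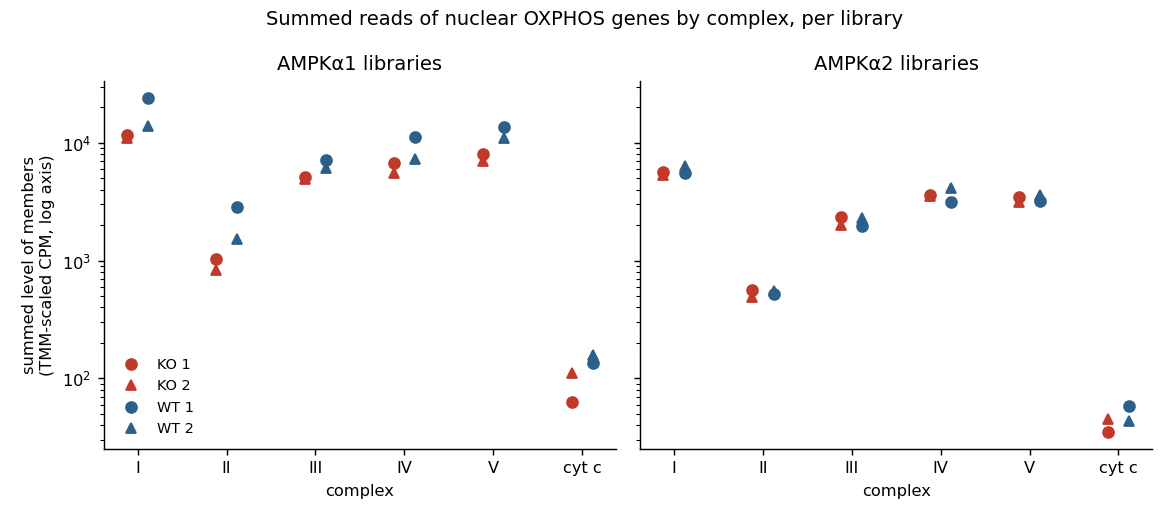
Summed level of the members of each complex in every library (TMM-scaled CPM on a log axis; red, KO; blue, WT; circle, library 1; triangle, library 2). In AMPKα1 the blue points lie above the red ones in each complex, with WT 1 the highest in complexes I to V, while in AMPKα2 the groups lie close together; the scaling was computed within each model, so heights are not compared between the panels.

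The lowest p-values among members of the AMPKα1 comparison belonged to Atp5sl, Ndufs8, Ndufa13, Uqcrfs1 and Ndufa9, each with an adjusted p of 0.763 in edgeR. For Atp5sl, the KO mice had 0 and 0 reads and the WT mice 64 and 39. Against a floor of 3 reads per library, which covers counting error only, this is at least 27.5-fold lower in the KO. DESeq2 gave an adjusted p of 0.0337. In this KO group 996 of the 8368 genes with 50 reads in a mouse had none in the other, so the bound leaves out the spread between mice. Its leading APS was at chr7:25625554, 3 nt past the annotated end of the gene, and held 83.1% of its reads. The gene was not silent in the other KO, with 6 and 13 reads in the AMPKα2 KO and 11 and 9 in the AMPKα2 WT. Ndufs8, which holds iron-sulfur clusters close to the quinone site of complex I, had 124 and 95.8 CPM in the KO and 538 and 257 CPM in the WT (log2 fold change -1.85, SE 0.50). Ndufa13, an accessory subunit of complex I, had 216 and 163 CPM against 1093 and 398 CPM (log2 fold change -1.97, SE 0.57). In DESeq2 the adjusted p was 0.0872 for Ndufs8 and 0.0438 for Ndufa13. Uqcrfs1, the Rieske iron-sulfur protein of complex III, had 157 and 170 CPM against 404 and 380 CPM (log2 fold change -1.26, SE 0.38). Ndufa9 had 117 and 112 CPM against 297 and 260 CPM (log2 fold change -1.28, SE 0.39). For Uqcrfs1 and Ndufa9 the libraries of a group lay closer together than for Ndufs8 and Ndufa13, where WT 1 was far above WT 2. Without WT 1 the log2 fold change was -1.22 for Ndufs8 and -1.07 for Ndufa13, and without WT 2 it was -2.25 and -2.49.

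Catalytic and structural subunits of the AMPKα1 comparison differed in how far their groups lay apart. Atp5b, the β subunit that makes ATP, had 648 and 393 CPM in the KO and 696 and 529 CPM in the WT (log2 fold change -0.23, SE 0.41). Ndufs1, which carries iron-sulfur clusters of complex I, had 51.5 and 61.9 CPM against 60.1 and 68.7 CPM, and the groups of Atp5b and Ndufs1 overlapped. The sum of Ndufs1 covers sites that differed. Its leading APS held 18.78% and 14.29% of its reads in the KO and 64.55% and 51.9% in the WT (log2 fold change -2.13, SE 1.06). An intronic site at chr1:63158889 had 147 and 99 reads against 7 and 34 (log2 fold change 2.22, SE 1.20). Neither site passed (edgeR adjusted p = 0.543 for each). Ndufv1, the NADH-binding subunit, had 65.2 and 56.1 CPM against 66.6 and 120 CPM, which do not overlap, though KO 1 and WT 1 nearly met. Atp5a1 had 1500 and 1154 CPM against 2478 and 2123 CPM, with no overlap, though its unadjusted p was not under 0.05. Cyc1, the cytochrome of complex III, had 181 and 284 CPM against 343 and 373 CPM. Cox4i1 had 1774 and 1702 CPM against 2823 and 2116 CPM, and Cox5a 652 and 620 CPM against 1287 and 1043 CPM. Ndufs7, another iron-sulfur subunit of complex I, had 307 and 193 CPM against 920 and 250 CPM, which overlap. The only members with a fold change above 0 were Ndufb11, Ndufa5, Cox6c and Uqcr11, with values from 0.01 to 0.16 and overlapping groups in each. The muscle fibre markers were Acta1, Ckm, Tnnc2, Tnnt3, Pvalb, Actn3, Mylpf and Atp2a1, none of which is on the slow fibre list. Levels of these markers moved in the same direction as the members in this model: 8 of 8 were below 0 (median log2 fold change -0.90, range -1.53 to -0.12). Their summed level was 79918 and 66547 CPM in the KO and 168440 and 86063 CPM in the WT. The markers of slow fibres leaned the other way in 5 of 7 (median 0.65). Their part in the result was not tested.

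Single APSs were tested as well in AMPKα1. None of 169 member sites tested passed (edgeR, adjusted p under 0.1), where 0.00454% of all 44024 sites did, while 38 had an unadjusted p under 0.05 and a lower level and 1 a higher level, where 2.38% and 0.691% of all sites had one. DESeq2 called 1 member site, that of Atp5sl, as lower. Of these 38 sites, 26 lay in 3′ UTRs and 12 up to 24 nt past a gene end. Without AMPKα1 WT 2 the fit called 17 of 141 member sites lower, and 0.445% of all sites, and leaving out each of the other 3 libraries in turn it called 0.

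The second comparison asked the same of muscle without AMPKα2. The members' median lay close to that of all genes, though members without overlap were more often lower in the KO than higher. None of 78 members tested passed the test (edgeR, adjusted p under 0.1), although 51 of 10536 genes did, or 0.484%, and none had an unadjusted p under 0.05, where 3.64% of all genes had one with a lower level and 4.79% with a higher level. DESeq2 also called none, against 0.344% of genes called lower. The fold change was below 0 in 46 of 78 members and in 50.6% of all genes, with a median of -0.09 against -0.01. Both KO libraries lay below both WT libraries in 28 of 78 members and above them in 6, where all genes gave 20.5% and 18.7%. With library totals the median of all genes was -0.19 and that of the members -0.26, so the distance between them was -0.07 in place of -0.08. Without AMPKα2 KO 1 the members' median was -0.11 against -0.03 over all genes, 50 of 78 were below 0 and none was called. Atp5s did not reach the 16 reads needed over the 4 libraries and was not tested. Slow fibre markers were above 0 in 7 of 7 (median log2 fold change 1.17) in this comparison, with an unadjusted p under 0.05 in 6, and muscle fibre markers in 6 of 8 (median 0.14). Their part in the values of the members was not tested.

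The totals by complex were close in AMPKα2. Complex I summed to 5677 and 5343 CPM in the KO and 5533 and 6301 CPM in the WT, and complex II to 562 and 493 CPM against 524 and 557 CPM. Complex III had 2363 and 2004 CPM against 1977 and 2302 CPM, complex IV 3588 and 3538 CPM against 3146 and 4095 CPM, and complex V 3462 and 3121 CPM against 3206 and 3581 CPM. The groups overlapped in all 5 complexes and in cytochrome c, and the log2 ratios lay between -0.10 and 0.03 for the complexes with spreads of 0.10 to 0.19. With library totals, where AMPKα2 KO 1 had 11679 CPM over all members and the other 3 libraries 16604 to 16913 CPM, the log2 ratio over all members was -0.24 in place of -0.05. Without KO 1 and with TMM it was -0.11, and the complexes lay between -0.15 and -0.03. A shift within this spread was not detectable with 2 libraries in a group.

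Among single genes of AMPKα2, those with the lowest p on the lower side were Ndufs5, Atp5g1, Cox7a2l, Atp5k and Sdhd, and on the higher side Ndufb4, Atp5g3, Uqcrc2, Cox6a2 and Sdha. Adjusted p-values ranged from 0.638 to 0.737 in edgeR. Atp5g1, which encodes the c subunit of the ATP synthase ring, had 234 and 199 CPM in the KO and 269 and 339 CPM in the WT (log2 fold change -0.49, SE 0.25). Atp5g3, which encodes the same mature c subunit, had 61.1 and 31.6 CPM against 28.5 and 32.2 CPM (log2 fold change 0.60, SE 0.34), where KO 1 alone was high. Without KO 1 the log2 fold change was 0.07 for Atp5g3, 0.05 for Sdha in place of 0.37, and -0.01 for Cox6a2 in place of 0.43, while Atp5g1 had -0.61. Cox7a2l had 75.2 and 82.2 CPM against 123 and 94.3 CPM (log2 fold change -0.47, SE 0.25). Ndufb4, an accessory subunit of complex I, had 243 and 202 CPM against 146 and 177 CPM (log2 fold change 0.46, SE 0.25). Uqcrc2, a core subunit of complex III, had 179 and 170 CPM against 141 and 130 CPM (log2 fold change 0.36, SE 0.23). The groups of Atp5g1, Cox7a2l, Ndufb4 and Uqcrc2 did not overlap, nor did those of Sdhd, Atp5k and Ndufs5 given next. Over all genes, both KO libraries lay below both WT libraries in 20.5% and above them in 18.7%. Sdhd had 56.7 and 70.0 CPM against 85.1 and 85.3 CPM, and Atp5k 49.0 and 64.4 CPM against 70.4 and 89.1 CPM. Without KO 1 the log2 fold change was -0.30 for Atp5k in place of -0.48 and -0.28 for Sdhd in place of -0.42. Ndufs5 rested on few reads, with 1.27 and 2.37 CPM against 5.87 and 3.32 CPM.

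The KO effects of AMPKα1 and AMPKα2 were set against each other with an interaction term over all 8 libraries. No member passed (edgeR, adjusted p under 0.1), where 0.0586% of 15349 genes did. An unadjusted p under 0.05 was found for 11 members, all with a lower effect in AMPKα1, where 4.73% of all genes had one in that direction. With library totals 2 members had one. The lowest was Atp5sl, with an adjusted p of 0.28, and the next was Uqcrfs1 with 0.505. The median difference of log2 fold changes over the members was -0.63, against -0.04 over all genes. So a lower median in the AMPKα1 KO and a median near that of all genes in the AMPKα2 KO do not show, gene by gene, that the effects differ.

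The isoforms of complex IV and of the c ring give a view that no scaling can move, since both genes are counted in the same library. In complex IV, Cox6a2, Cox7a1 and Cox8b are the isoforms of heart and skeletal muscle, and Cox6a1, Cox7a2 and Cox8a are made in most tissues. Muscle isoforms held most of the reads in each library. Cox7a1 had 95.2% and 95.04% of the reads of Cox7a1 and Cox7a2 in the AMPKα1 KO and 91.5% and 97.2% in its WT. In the AMPKα2 libraries it had 83.2% and 82.1% in the KO and 83.5% and 83.3% in the WT. Cox7a2 thus took 2.78% to 8.51% of the pair in AMPKα1 and 16.5% to 17.9% in AMPKα2, ranges that do not meet. Within AMPKα2 both KO libraries were above both WT libraries, with overlapping 95% intervals, and within AMPKα1 the KO values lay between those of the WT. Cox8b took 94.1% to 98.9% of the reads of Cox8a and Cox8b in AMPKα1 and 92.5% to 96.6% in AMPKα2, and these ranges overlap. Cox6a2 took 76.2% to 82.4% of its pair in AMPKα1, whereas in AMPKα2 it took 85.3% and 71.5% in the KO and 68.3% and 71.1% in the WT. The high share of AMPKα2 KO 1 came with 97 reads of Cox6a2 at APSs in coding exons, described below. Atp5g1 led the 3 genes of the c subunit in all libraries with 59.7% to 90.7%. Atp5g3 took 20.6% and 13.6% in the AMPKα2 KO and 9.52% and 8.62% in its WT, so that both KO libraries were higher, while in AMPKα1 it took 35.8% and 16.0% in the KO and 22.4% and 38.7% in the WT. Atp5g2 stayed at 2.98% or less. Ndufa4 held 78.3% to 95.03% of the reads of Ndufa4 and Ndufa4l2, the latter with 42 reads or fewer in a library.

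**Figure D3:**
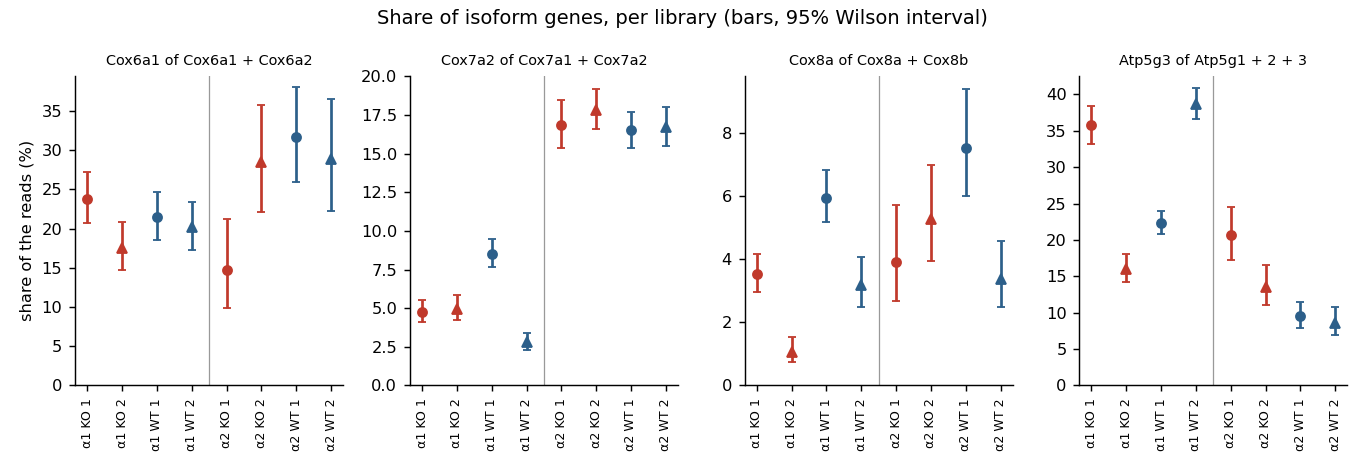
Share of the reads of an isoform group taken by Cox6a1, Cox7a2, Cox8a and Atp5g3 in each library (percent, vertical axis; red, KO; blue, WT; bars, 95% Wilson intervals, which cover counting error only). Cox7a2 lies at 2.78% to 8.51% in the 4 AMPKα1 libraries and at 16.5% to 17.9% in the 4 AMPKα2 libraries; in the other panels the ranges of both models overlap.

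Further differences separated the AMPKα1 from the AMPKα2 libraries. Tested over all 8 libraries with TMM, 26 members were called lower and 7 higher in the AMPKα1 libraries (edgeR, adjusted p under 0.1), where 15.8% and 6.69% of all genes were. With library totals the split turned: 55 members were called higher and 1, Cox7a2, lower, where 43.3% and 8.32% of all genes were. That scaling moved the median of all genes from 0.00 to 1.76, and the members' median lay 0.27 below it with TMM and 0.25 below it with library totals. Called lower with TMM were Cox7a2 (log2 fold change -3.61, SE 0.54), Ndufs7 (-2.44), Ndufb4 (-2.35), Cox7b (-2.31), Ndufb8 (-1.95), Atp5b (-1.94) and Cox7a1 (-1.84), and, with values from -1.78 to -0.70, Ndufv1, Atp5d, Sdha, Ndufs1, Ndufa3, Atp5h, Uqcrb, Ndufv2, Atp5l, Uqcrh, Atp5j2, Atp5g1, Cox6c, Ndufa10, Ndufs8, Ndufs4, Cox5b, Uqcrq and Cyc1. Called higher were Atp5k (1.85, SE 0.28), Ndufa1 (1.51), Cox5a (1.40), Ndufv3 (1.39), Ndufb5 (1.31), Atp5f1 (0.87) and Ndufa8 (0.81), and these 7 were also called higher with library totals. Members of 1 complex were found on both sides: of complex IV, Cox5a had 1.40 and Cox7a2 -3.61.

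**Figure D4:**
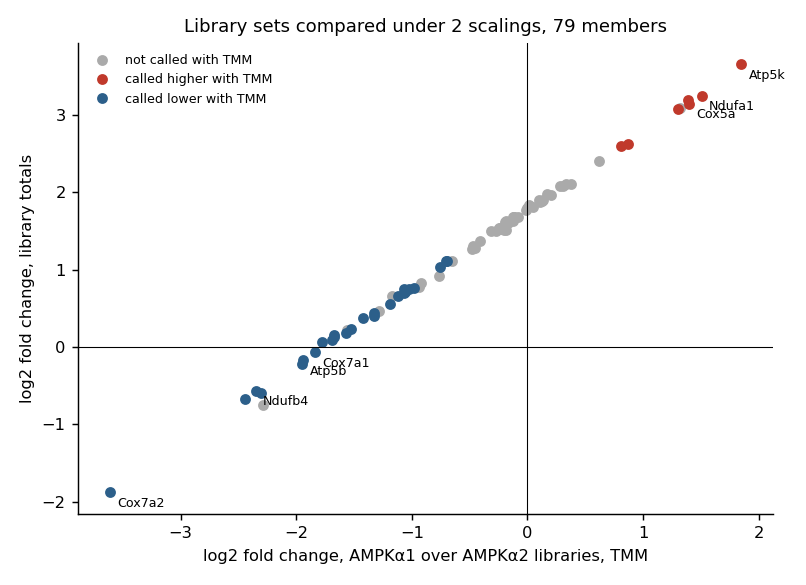
Log2 fold change of the AMPKα1 over the AMPKα2 libraries for each of the 79 genes, with TMM scaling (horizontal axis) and with library totals (vertical axis); red and blue points were called higher and lower with TMM. The points lie higher on the vertical axis than on the horizontal one, the 7 red genes are above 0 on both, and Cox7a2, called lower under both scalings, is at the lower left.

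The place of the reads within genes differed as well. APSs in coding exons made up 69 of the 298 member sites but held few reads. They held 0.0122% to 0.0494% of the member reads in the AMPKα1 libraries. In the AMPKα2 libraries they held 6.29% and 2.60% in the KO and 2.40% and 2.66% in the WT. Of these 69 sites, 56 had no read in any AMPKα1 library, and 54 of the 56 had a read in every AMPKα2 library, while none was empty in all AMPKα2 libraries. Over all protein coding genes, 2111 of 4087 coding exon sites were empty in AMPKα1 and 34 in AMPKα2. Of the 2111 sites, 2036 had a read in every AMPKα2 library. A site needed 16 reads over the 8 libraries, so a site empty in AMPKα1 entered through the AMPKα2 libraries alone. Over all protein coding genes the share at coding exons was 3.36% to 4.604% in AMPKα1 and 9.99% to 14.2% in AMPKα2, so that this feature of the library sets was not limited to the members. Atp5b had 355 and 170 such reads in the AMPKα2 KO and 228 and 131 in its WT, and 0 in all AMPKα1 libraries. Within AMPKα2, 58 of the 67 coding exon sites tested had a fold change above 0 in the KO, and without KO 1, the library with the highest share, 20 of 48 did. No member site passed the test in AMPKα2 (0 of 222, edgeR, adjusted p under 0.1; 0.056% of 23218 sites did), with an unadjusted p under 0.05 for 8 higher and 1 lower, where 5.12% and 2.49% of all sites had one. The lowest p belonged to a coding exon site of Cox6a2 at chr7:128205907, with 40 and 20 reads in the KO and 6 and 3 in the WT (log2 fold change 3.15, SE 0.70, edgeR adjusted p = 0.465). The leading APS of Cox6a2 held 22.7% of its reads in AMPKα2 KO 1 and 71.2% to 84.0% in the other AMPKα2 libraries.

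Subunits encoded by mitochondrial DNA are the partners of the nuclear subunits in complexes I, III, IV and V. Reads of the 8 mitochondrial protein coding genes in the table were 0.078% to 0.152% of the summed nuclear and mitochondrial OXPHOS reads in AMPKα1. In AMPKα2 they were 4.73% and 6.79% in the KO and 6.84% and 6.86% in the WT. This share does not depend on the scaling, and the ranges of the library sets lie far apart. ND6, a subunit of complex I and the one encoded on the other strand of the mitochondrial genome, gave 88.8% to 91.9% of these reads in AMPKα2, while AMPKα1 libraries had 83 to 165 mitochondrial reads in all. In the AMPKα2 comparison, 6 of 8 of these genes were below 0, where 50.6% of all genes were, and none was called. The lowest p was that of ND1, with 19 and 28 reads in the KO and 70 and 65 in the WT (log2 fold change -1.14). These counts join both strands. Reads on the strand of their own gene were 89.7% to 92.6% of the mitochondrial reads in AMPKα2, little above the share of ND6. Counts of ND1 and the other genes may thus hold many reads of the opposite strand and are not plain levels of their mRNA.

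**Figure D5:**
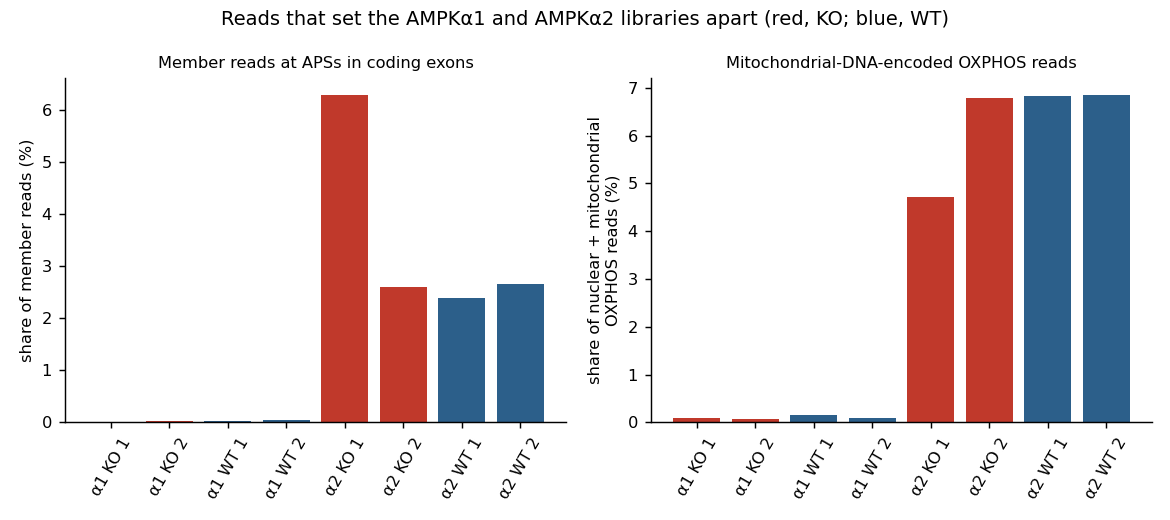
Left, share of member reads at APSs in coding exons (percent); right, share of mitochondrial reads among all OXPHOS reads (percent), by library (red, KO; blue, WT). On the left the 4 AMPKα1 libraries are at or below 0.0494% and AMPKα2 KO 1 is the highest at 6.29%; on the right the AMPKα1 libraries are at or below 0.152% and the AMPKα2 libraries at 4.73% to 6.86%.

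Genes that build or regulate the complexes were read from the same fits. Of 48 assembly factors named, 44 were in the table, and no factor was called in either model (edgeR, adjusted p under 0.1). In AMPKα1 30 of 44 were below 0 (median -0.52), against 51.1% of all genes. Ndufaf4, Coa5 and Sdhaf2 were lower with an unadjusted p under 0.05, as were 2.85% of all genes. Ndufaf4, an assembly factor of complex I, had 24 and 38 reads in the KO and 130 and 205 in the WT (log2 fold change -2.91), and Coa5, which acts in complex IV assembly, had 11 and 46 against 253 and 123 (log2 fold change -3.45). Both were lower in each KO library than in each WT library, as were 18.9% of all genes. In AMPKα2 26 of 41 were below 0 (median -0.17), against 50.6% of all genes. Uqcc2 alone had an unadjusted p under 0.05 and was higher, as were 4.79% of all genes. Of 14 regulators of mitochondrial genes tested in AMPKα1, 6 were below 0 (median 0.36), and of 9 in AMPKα2, 3 were (median 0.12), where 51.1% and 50.6% of all genes were. Ppargc1a, the coactivator PGC-1α, had 322 and 220 reads in the AMPKα1 KO and 138 and 90 in its WT (log2 fold change 0.59), and 89 and 93 reads in the AMPKα2 KO against 86 and 54 (log2 fold change 0.87, unadjusted p under 0.05). These reads are not scaled for depth. With TMM the AMPKα1 groups of Ppargc1a overlapped and those of AMPKα2 did not. Tfb1m, a mitochondrial methyltransferase, had 0 and 0 reads in the AMPKα1 KO and 16 and 35 in its WT, so its values rest on few reads. Both KO libraries lay below both WT libraries for Tfb1m, as for 18.9% of all genes. No regulator was called in either model (edgeR, adjusted p under 0.1).

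The promoters of the members were searched for elements known from OXPHOS genes, on both strands of the RefSeq windows from 250 bases before to 50 bases after a start (GRCm38.p6). A window was held for 62 members, with 66 windows in all. GCATGCGC, the core of the NRF-1 element, was found in 15.2% of these windows and in 2.71% of all 32851 windows. AAGATGGCG, an element of YY1, was found in 10.6% and 1.4%, and TCAAGGTCA, that of the estrogen-related receptors, in 3.03% and 0.423%. CCGGAAGT, bound by GABP, was found in 6.06% and 3.89%, and CCAAT, that of NF-Y, in 43.9% and 37.4%. These motifs do not contain one another. Windows with the NRF-1 core are printed for 1 gene of each complex and for cytochrome c, since its count among the members was the highest of the longer motifs and it was found in each of the 6 groups; the core is in capitals, 5′ to 3′ on the strand of the gene.
Ndufa8 (complex I), chr2:36049328-36049357, minus strand: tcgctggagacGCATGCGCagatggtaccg
Sdhb (complex II), chr4:140961206-140961235, plus strand: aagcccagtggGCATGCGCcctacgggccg
Uqcr11 (complex III), chr10:80406807-80406836, minus strand: atcgccttcacGCATGCGCtatacgtctgc
Cox6a1 (complex IV), chr5:115349100-115349129, minus strand: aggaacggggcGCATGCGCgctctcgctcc
Atp5k (complex V), chr5:108434429-108434458, minus strand: ttcactgcggcGCATGCGCctttctggctt
Cycs (cytochrome c), chr6:50566611-50566640, minus strand: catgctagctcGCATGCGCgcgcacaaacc
A match is a description of these letters. In AMPKα1 the log2 fold changes of these genes were -0.44 for Ndufa8, -1.36 for Sdhb, 0.01 for Uqcr11, -0.72 for Cox6a1, -0.23 for Atp5k and -0.74 for Cycs, and differences between them were not tested.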

How the data were processed

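Total RNA of 8 gastrocnemius muscles was fragmented, selected for poly(A) and sequenced from the 3′ end (WTTS-seq, Ion PGM). Per the methods of the study, the authors filtered reads with FASTX Toolkit 0.0.13.1, trimmed leading T bases, kept reads of at least 16 bases, mapped them with TMAP 3.4.1 to the NCBI mouse genome (GRCm38.p5 per the labels), joined read starts within 24 bases into an APS and assigned genes with Cuffcompare 2.2.1. The deposited values are raw read counts per APS and library, and each APS has at least 16 reads over the libraries; 9.33% of all reads had no gene and were left out. Counts were summed per gene symbol. A gene or APS entered a fit when its libraries held 16 reads or more together, and was tested with edgeR 4.0.16 (TMM, robust quasi-likelihood test, R 4.3.3) within each model and, for the interaction and the library sets, over all 8 libraries, with Benjamini-Hochberg adjusted p under 0.1. The spread of replicates is that between mice. DESeq2 1.42.0 was an alternative. The steps were tested on simulated data. APSs were placed on GENCODE M21, where all 79 genes were found, 1 of them under its newer name. Intervals are 95% Wilson intervals, and a floor of 3 reads per library stands for a group at 0; both cover counting error only.

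The members and gene lists were chosen with earlier results of these data known. Genes named are those called in a comparison, the 5 members of lowest p per model and direction, the 2 highest of each complex, the isoform groups, the catalytic subunits and members with 0 reads in 1 library and at least 50 in the other of a group, of which there were 0 (1 gene that the rule names is not reported here); assembly factors, regulators and mitochondrial genes with an unadjusted p under 0.05 were named after their values were seen. Other lists are marker genes of muscle fibres, slow fibres, fast fibres and of other cell types. In AMPKα1 and AMPKα2, fast fibre markers had a median log2 fold change of -0.57 and 0.56, white adipocyte markers 0.58 and -0.54, erythroid -0.06 and 0.42, macrophage 0.43 and -0.15, endothelium -0.09 and -0.41, fibroblast -0.20 and 0.44 and heart muscle -0.22 and 0.06; of brown adipocyte markers Ucp1 was not analysed here and Cidea was tested in AMPKα1 only (1.18). No marker was called in either KO comparison. Alternatives were DESeq2 and its size factors, library totals, no filter, a fit over all 8 libraries, the replicate number as a block, gene IDs, leading or sense APSs alone, each library left out and, chosen after seeing the data, ribosomal RNA genes left out.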

Additional observations from a re-analysis of the deposited data

Results flagged for a closer look

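In 3 members both KO libraries lay below both WT libraries in AMPKα1 and above both WT libraries in AMPKα2 (TMM-scaled CPM). This is 3.85% of the 78 members tested in both models, and 3.88% of all genes had the pattern, so it was no more common among the members. With library totals the AMPKα2 groups of these 3 overlapped, and 2 other members had the pattern (2.56%, against 1.16% of all genes). In the interaction test over all 8 libraries the difference of log2 fold changes, AMPKα1 minus AMPKα2, was -1.01 for Ndufa6 (SE 0.43, edgeR adjusted p = 0.707), -0.75 for Cyc1 (SE 0.45, edgeR adjusted p = 0.808) and -0.63 for Cox4i1 (SE 0.42, edgeR adjusted p = 0.831), and none of the 3 passed. Ndufa6, an accessory subunit of complex I, had 663 and 592 CPM in the AMPKα1 KO and 1222 and 893 CPM in its WT, and 203 and 243 CPM in the AMPKα2 KO and 188 and 182 CPM in its WT. No group had the 4 libraries that a search for single outlying libraries needs.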

How the results depend on the processing

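With 2 libraries in a group, 1 library could move most values, and depth limited the genes of few reads. In AMPKα1, DESeq2 called 3 members and 1 member APS lower, and the fit over all 8 libraries called 1 member lower, where the edgeR fit called 0. In AMPKα2, member APSs called were 2 higher and 1 lower both with no filter, of 284 tested, and with the replicate block, of 222, while over all sites no filter called 0.85% higher and 0.264% lower and the block 1.59% and 0.65%. Between library sets, library totals called 55 members higher and 1 lower. Library totals gave a members' median of -0.26 in AMPKα2 and log2 ratios of -0.13 (complex III) and -0.43 (complex V) in AMPKα1, and of -0.29 (I), -0.23 (II), -0.17 (III), -0.24 (V) and -0.24 (all members) in AMPKα2. Leading APSs alone gave -0.22 (II) and -0.17 (V) in AMPKα2. The cause was not tested.

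Leaving out each library in turn gave 0 to 17 member APSs called lower in AMPKα1, 0 to 2 members with a lower effect in AMPKα1 (2 without AMPKα1 KO 1), 5 to 8 members higher and 17 to 31 lower between library sets (17 without AMPKα2 KO 2), and medians of -0.98 to -0.45 in AMPKα1 and of -0.15 to 0.066 in AMPKα2. Log2 ratios in AMPKα1 were -1.09 to -0.30 (I), -1.61 to -0.73 (II), -0.51 to -0.28 (III), -1.21 to -0.39 (cytochrome c) and -0.93 to -0.36 (all members), and in AMPKα2 -0.20 to 0.18 (IV). Log2 fold changes that changed sign were those of Ndufb11 (-0.13 to 0.55, with -0.12 in another fit), Ndufa5 (-0.24 to 0.77), Cox6c (-0.14 to 0.49, with -0.13 in another fit) and Uqcr11 (-0.13 to 0.12) in AMPKα1 and of Cox6a2 (-0.0133 to 0.79) in AMPKα2.

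Over all genes, same-numbered libraries showed no common deviation: the correlation of their deviations from the group means was 0.03 in AMPKα1 and -0.01 in AMPKα2. A value over all genes cannot show whether a part of the genes shared a batch. With the replicate block 0 members were called in either model, and over all genes of AMPKα2 it called 46 higher and 37 lower against 27 and 24 without it. No filter called 246 and 130, library totals 69 and 91, DESeq2 54 and 20 and the fit over all 8 libraries 1 and 3. In AMPKα1 DESeq2 called 27 genes higher and 88 lower and the fit over all 8 libraries 10 and 73.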
